A study of Mus musculus with 8 samples.

Results

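Alpha- and beta-tubulin are the building blocks of microtubules. One molecule of each forms a dimer, dimers join end to end into hollow filaments, and drugs of the maytansine class, such as ansamitocin-P3, bind tubulin and make the filaments fall apart. Cells hold several genes for each subunit, and they adjust the amount of tubulin mRNA to the amount of free dimer through a ribosome-bound factor, TTC5, that reads the first residues of a tubulin chain as it is made. GEF-H1, the product of *Arhgef2*, is a guanine nucleotide exchange factor that sits on microtubules and is released when they depolymerize, which is why tubulin genes were followed here in cells with and without it.

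The 10 genes described were chosen by name: the alpha-tubulin genes *Tuba1a*, *Tuba1b*, *Tuba1c* and *Tuba4a* and the beta-tubulin genes *Tubb2a*, *Tubb2b*, *Tubb3*, *Tubb4b*, *Tubb5* and *Tubb6*. All 10 were found among the 23356 genes of the table, and all 10 were among the 11397 genes that had an accepted status and at least 1 FPKM in at least 1 group. The rule used gene names only, and the genes were chosen with earlier results of these data known.

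The cells were bone marrow-derived dendritic cells (BMDCs), grown for 6 days in GM-CSF and IL-4 (10 ng/ml each) from mice of C57BL/6 background (C57BL/6N in the study's methods) aged 8 to 16 weeks. There were 4 groups of 2 libraries each: WT cells left untreated for 5 h, WT cells given 100 nM ansamitocin-P3 for 5 h, and GEF-H1-/- cells, from *Arhgef2* knockout mice, left untreated or treated in the same way. Untreated cells are called control cells here. Transcript levels are in FPKM, fragment counts scaled by transcript length and library size, so levels can be compared between genes as well as between groups.

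The processed table used here holds only group values: the 2 libraries of a group stand as a single FPKM per gene, with the bounds of its Cuffdiff 95% interval. There is therefore no SD, n or p-value for any difference below, the spread between libraries cannot be seen, and the depth of each library cannot be read from these values. A change is the log2 ratio of FPKM + 1, which understates changes of genes near 1 FPKM, and its 95% interval was propagated from the Cuffdiff bounds. A gene was called higher or lower when this ratio was over 1 or under -1, and a second rule asked whether the 2 Cuffdiff intervals were apart. In bulk RNA, fewer cells of a type and less RNA per cell cannot be told apart.

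*Arhgef2* was at 42.3 FPKM in control WT cells and 45.9 FPKM in treated WT cells, and at 4.59 and 4.16 FPKM in control and treated GEF-H1-/- cells, so the targeted gene ran with the labels. The dendritic cell gene *Cd74*, the MHC class II chaperone, was abundant in all groups, between 3073 and 4935 FPKM. The 12 dendritic cell markers summed to 6304 and 8195 FPKM in control and treated WT cells. In control and treated GEF-H1-/- cells the sums were 5349 and 5876 FPKM. Log2 changes of these markers with the drug ran from -0.98 to 1.22 in WT cells. Their log2 genotype differences in control cells ran from -0.65 to 0.61. Neutrophil genes were abundant as well, with *S100a8* between 10856 and 23110 FPKM and *Camp* at 189 FPKM in control WT against 14.98 FPKM in control GEF-H1-/- cells. Of the 6 neutrophil markers, 2 were called lower in control GEF-H1-/- cells, *Camp* and *Ngp* (1707 against 702 FPKM), and 2 were called higher, *Mpo* (26.4 against 63.1 FPKM) and *Elane* (20.7 against 45.9 FPKM). In this comparison 1.88% of all genes were called in either direction. The complement gene *C1qa*, a macrophage marker, was higher in control GEF-H1-/- cells, at 4.22 FPKM in WT against 29.2 FPKM in GEF-H1-/- cells. It had the largest difference of the 8 macrophage markers. Of these 8, 3 were called higher and 0 lower in control GEF-H1-/- cells, beside the same 1.88% of all genes. Log2 differences of the 8 ran from -0.22 to 2.53, with a median of 0.42. The summed FPKM of the 6 neutrophil markers was 32023 and 37883 in control and treated WT cells and 21687 and 22111 in control and treated GEF-H1-/- cells. For the 8 macrophage markers the sums were 184 and 124 FPKM in WT cells and 286 and 256 FPKM in GEF-H1-/- cells. Cultures of the genotypes thus differed in these markers both with and without the drug, and the part of this in the tubulin values was not tested.

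The residues that TTC5 reads are encoded at the very start of the coding sequence. These bases are printed for 9 members, all but *Tubb6*, because they encode those residues. TTC5 reads the residues of the chain and not the bases. Each line gives the first 30 coding bases, 5′ to 3′ on the coding strand, from the GENCODE M21 models on GRCm38, with the first 4 codons in capitals. 
Tuba1a: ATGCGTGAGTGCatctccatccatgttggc
Tuba1b: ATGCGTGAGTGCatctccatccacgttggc
Tuba1c: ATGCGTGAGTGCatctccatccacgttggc
Tuba4a: ATGCGCGAGTGCatttcagtccatgtgggg
Tubb2a: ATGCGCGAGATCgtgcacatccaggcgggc
Tubb2b: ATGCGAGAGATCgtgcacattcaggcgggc
Tubb3: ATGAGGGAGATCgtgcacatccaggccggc
Tubb4b: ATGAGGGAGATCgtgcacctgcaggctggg
Tubb5: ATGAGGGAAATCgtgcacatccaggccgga

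*Tuba1a*, *Tuba1b* and *Tuba1c* shared the same first 12 bases, and so did *Tubb3* and *Tubb4b*. The other 4 genes printed had a spelling of their own. Within the alpha genes, and within the beta genes printed, the different spellings encode the same first 4 residues. In the alpha genes the first coding exon held only the start codon (3 coding bases), so the printed stretch crosses an intron, whereas the first coding exon of the beta genes held 57 coding bases. The start codons lie at chr15:98953451-98953453 on the minus strand for *Tuba1a*, chr15:98934333-98934335 on the minus strand for *Tuba1b* and chr15:99030422-99030424 on the plus strand for *Tuba1c*. That of *Tuba4a* lies at chr1:75219193-75219195 on the minus strand. Among the beta genes they lie at chr13:34077927-34077929 for *Tubb2a* and chr13:34130231-34130233 for *Tubb2b*, both on the minus strand. For *Tubb3* it is chr8:123411606-123411608 on the plus strand, for *Tubb4b* chr2:25224588-25224590 and for *Tubb5* chr17:35838051-35838053, both on the minus strand.

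Some of the members lie in 2 gene clusters, and each of the others is the only member on its chromosome. *Tuba1b*, *Tuba1a* and *Tuba1c* follow each other on chromosome 15, with gaps of 15.5 kb and 76.4 kb between their loci, and *Tubb2a* and *Tubb2b* lie 49.0 kb apart on chromosome 13. Within the alpha group the predicted proteins were 95.3 to 99.6% identical, within the beta group 90.2 to 99.6%, and between alpha and beta 39.9 to 41.7%. *Tuba1a* and *Tuba1b* differed at 2 of 451 residues, and *Tubb2a* and *Tubb2b* at 2 of 445. Beta genes most unlike the rest were *Tubb3* and *Tubb6*, which matched the other members of their group at 90.2 to 92.0% of residues.

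The ends of the coding sequences of *Tubb2a* and *Tubb2b* are printed because tubulin tails are where isotypes usually differ most, and because they show how little separates these mRNAs. Each line gives the last 60 coding bases before the stop codon, with the bases that differ within the pair in capitals.
Tubb2a: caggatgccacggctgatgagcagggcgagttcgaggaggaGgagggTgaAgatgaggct
Tubb2b: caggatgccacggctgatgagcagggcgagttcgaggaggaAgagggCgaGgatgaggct

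These stretches lie at chr13:34074471-34074530 (*Tubb2a*) and chr13:34127474-34127533 (*Tubb2b*), both on the minus strand, and they differed at 3 positions. Such likeness bears on the values, since the reads were 35 bases long. Of all 35-base stretches in the main transcript, 77.8% in *Tuba1a*, 85.4% in *Tuba1b*, 63.2% in *Tuba1c*, 54.4% in *Tubb2a* and 44.3% in *Tubb2b* also occurred, on either strand, in a transcript of another gene. For *Tubb4b* the share was 67.4%, mostly from the pseudogene *Tubb4b-ps1*, and for *Tuba4a* 50.6%, mostly from *Stk16*, which overlaps it on the opposite strand. *Tubb3* (2.02%), *Tubb5* (3.21%) and *Tubb6* (1.91%) shared almost nothing, so their values rest on sequence of their own. How Cuffdiff handled shared fragments of the other 7 genes in these stranded, paired-end libraries is not known, and their FPKM carry that uncertainty. Of these genes, *Tuba4a* shared 0% and *Tubb4b* 0.064% of its stretches with another member.

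In control WT cells the most abundant member was *Tubb5*, the main beta-tubulin of most dividing cells, at 326 FPKM (95% interval 254 to 395). It was followed by *Tubb4b* at 188 FPKM, *Tuba4a* at 132 FPKM and *Tuba1b*, the main alpha-tubulin of many cell types, at 102 FPKM, with *Tubb6* at 81.4 FPKM. From *Tubb4b* down to *Tubb6*, each interval overlapped the next in the order. *Tuba1a* (33.2 FPKM) and *Tuba1c* (24.9 FPKM) formed the next step and overlapped each other. *Tubb2a* (10.97 FPKM), *Tubb3* (5.40 FPKM) and *Tubb2b* (1.10 FPKM), genes best known from neurons, came last, each apart from its neighbours. Control GEF-H1-/- cells had the same order of all 10 genes, from *Tubb5* at 329 FPKM to *Tubb2b* at 1.05 FPKM.

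**Figure D1:**
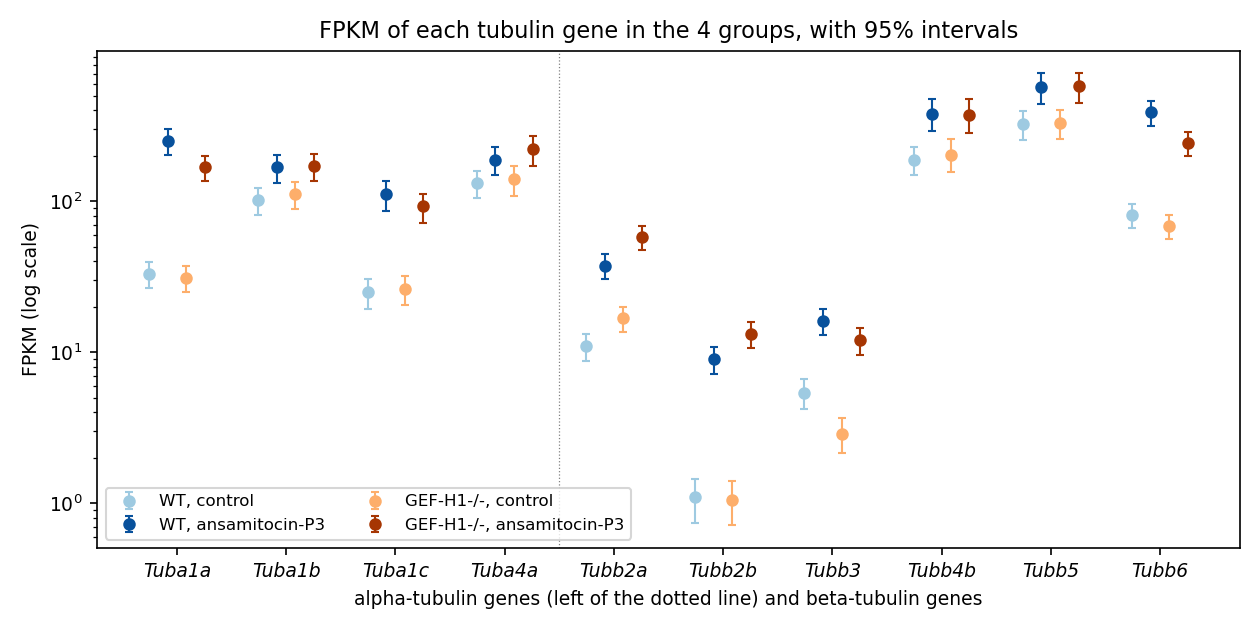
FPKM on a log axis for each of the 10 tubulin genes in control and ansamitocin-P3-treated WT and GEF-H1-/- cells. Points are the pooled Cuffdiff values, bars their 95% intervals, and the treated point of each genotype stands above its control point for all 10 genes, from 252 against 33.2 FPKM for *Tuba1a* in WT to 189 against 132 FPKM for *Tuba4a* in WT.

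The first question was what the drug did to tubulin mRNA in WT cells. All 10 genes had a higher FPKM after ansamitocin-P3. Of these, 7 passed a log2 change of 1, a limit that 3.66% of all 11397 genes passed upward, and 9 had intervals apart and higher, against 9.19% of all genes. The median log2 change of the members was 1.55, beside 0.00 for all genes.

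*Tuba1a*, an alpha-tubulin gene most used in developing neurons, changed most, from 33.2 FPKM (26.5 to 39.7) to 252 FPKM (201 to 302). This is 7.59-fold, a log2 change of 2.89 (2.49 to 3.29), and it ranked 34 from the top among all genes. Its intervals were far apart. The cluster partner *Tuba1c* went from 24.9 to 112 FPKM, a log2 change of 2.12 (1.68 to 2.56). *Tuba1b*, next to *Tuba1a* on the chromosome, went only from 102 to 168 FPKM, 1.65-fold, with a log2 change of 0.71 (0.29 to 1.13). *Tuba4a* was at 132 FPKM (106 to 157) in control and 189 FPKM (148 to 229) in treated cells, a log2 change of 0.52 (0.10 to 0.93), and was the 1 member whose Cuffdiff intervals overlapped.

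Among the beta genes, *Tubb6*, a divergent isotype found in many tissues, rose from 81.4 FPKM (66.6 to 96.2) to 387 FPKM (315 to 459), 4.75-fold, with a log2 change of 2.24 (1.86 to 2.61). *Tubb2b* had the largest ratio of FPKM, 8.19-fold, from 1.10 to 8.97 FPKM, but at this low level its log2 change on the FPKM + 1 scale was 2.25 (1.89 to 2.61). Its neighbour *Tubb2a* rose from 10.97 to 37.4 FPKM, a log2 change of 1.68 (1.30 to 2.06). *Tubb3*, the isotype used as a marker of neurons, rose from 5.40 to 16.1 FPKM, a log2 change of 1.42 (1.04 to 1.80).

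The abundant beta genes moved less. *Tubb4b* went from 188 to 380 FPKM, and its log2 change of 1.01 (0.55 to 1.47) lay just past the limit. It fell short of the limit with a pseudocount of 5 FPKM (0.999) and with the groups rescaled to equal summed FPKM (0.77). *Tubb5* went from 326 to 572 FPKM, a log2 change of 0.81 (0.35 to 1.26), just short of it. Intervals of both were apart from control.

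In GEF-H1-/- cells the tubulin genes were also higher after the drug. All 10 had intervals apart and higher, against 2.75% of all genes, and 6 passed a log2 change of 1, against 0.807% of all genes. The members' median log2 change was 1.74, beside -0.01 for all genes. The drug raised fewer genes past this limit in GEF-H1-/- cells (92) than in WT cells (417), and 6 of the 92 were tubulin genes.

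*Tubb2b* changed most in GEF-H1-/- cells, from 1.05 FPKM (0.715 to 1.41) to 13.2 FPKM (10.7 to 15.8), 12.6-fold, with a log2 change of 2.79 (2.44 to 3.15). *Tuba1a* went from 31.1 FPKM (24.9 to 37.3) to 168 FPKM (136 to 201), 5.41-fold, with a log2 change of 2.40 (2.01 to 2.79). These were the 2 highest changes among the 10 genes here, and they ranked 18 and 23 from the top among all genes. *Tubb6* rose from 68.9 to 243 FPKM (log2 1.80, 1.43 to 2.18) and *Tuba1c* from 26.3 to 92.3 FPKM (log2 1.77, 1.35 to 2.20). *Tubb3* rose from 2.89 to 12.02 FPKM (log2 1.74, 1.35 to 2.13) and *Tubb2a* from 16.8 to 58.1 FPKM (log2 1.73, 1.36 to 2.10).

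The abundant genes again had the smaller changes. *Tubb4b* went from 204 to 374 FPKM (log2 0.87, 0.36 to 1.39) and *Tubb5* from 329 to 575 FPKM (log2 0.80, 0.35 to 1.25). *Tuba4a* went from 140 to 222 FPKM (log2 0.66, 0.20 to 1.12), with its Cuffdiff intervals barely apart (upper bound 172.3 and lower bound 172.4 FPKM), and *Tuba1b* from 111 to 172 FPKM (log2 0.62, 0.20 to 1.03).

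**Figure D2:**
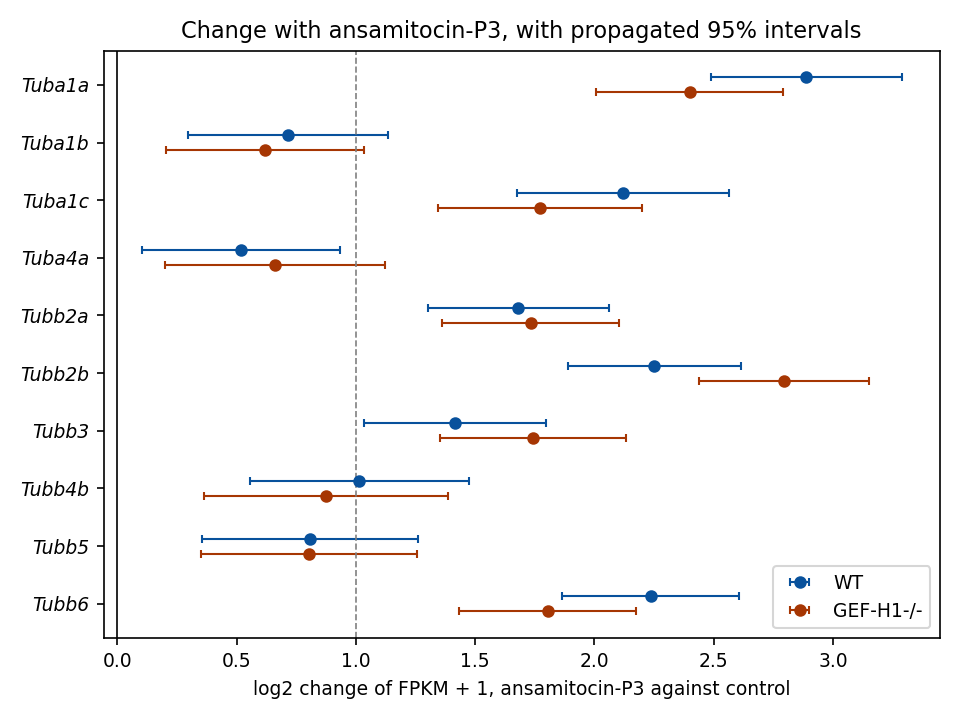
Log2 change of FPKM + 1 with ansamitocin-P3 for each tubulin gene in WT (blue) and GEF-H1-/- (brown) cells, with propagated 95% intervals; the dashed line marks the limit of 1. All 20 points and intervals lie to the right of 0, *Tuba1a*, *Tuba1c*, *Tubb2a*, *Tubb2b*, *Tubb3* and *Tubb6* lie past the limit in both genotypes, and the intervals of WT and GEF-H1-/- overlap for every gene.

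The 4 genes at 100 FPKM or more in control WT cells (*Tuba1b*, *Tuba4a*, *Tubb4b* and *Tubb5*) had log2 changes of 0.52 to 1.01 in WT cells and 0.62 to 0.87 in GEF-H1-/- cells. The 6 genes under 100 FPKM had log2 changes of 1.42 to 2.89 in WT cells and 1.73 to 2.79 in GEF-H1-/- cells, so the groups did not overlap in either genotype. This split was made after the values were seen, and the starting level enters both quantities. Summed, the 6 lower genes went from 157 to 813 FPKM in WT cells and from 147 to 587 FPKM in GEF-H1-/- cells, 5.18-fold and 3.99-fold. The sum of the 4 abundant genes changed 1.75-fold in WT cells and 1.71-fold in GEF-H1-/- cells.

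Adding up FPKM gives a relative measure of the tubulin mRNA of the genes described, called the pool here. *Tuba8* is left out of it, at 16.6% and 22.4% of an alpha sum that includes it in control WT and GEF-H1-/- cells. The intervals of these sums, ratios and shares do not carry the uncertainty in how shared fragments were split. The alpha sum went from 292 FPKM (257 to 326) to 721 FPKM (643 to 799) in WT cells, 2.47-fold (2.08 to 2.86), and from 309 to 654 FPKM in GEF-H1-/- cells, 2.12-fold (1.76 to 2.48). For beta it went from 613 FPKM (531 to 695) to 1402 FPKM (1225 to 1578) in WT, 2.29-fold (1.87 to 2.71), and from 623 to 1276 FPKM in GEF-H1-/- cells, 2.05-fold (1.65 to 2.45). The intervals of these ratios overlapped, and the alpha to beta ratio of FPKM was 0.476 (0.391 to 0.561) in control WT, 0.514 (0.429 to 0.599) in treated WT, 0.496 (0.400 to 0.592) in control GEF-H1-/- and 0.512 (0.425 to 0.600) in treated GEF-H1-/- cells. These 4 intervals overlapped. With the groups rescaled to equal summed FPKM, the alpha sum rose 2.09-fold in WT and 2.06-fold in GEF-H1-/- cells, and the beta sum 1.94-fold and 1.99-fold.

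Besides the sums, the make-up of the pool changed. In WT cells *Tuba1a* went from 11.4% (8.98 to 13.8) to 34.97% (29.6 to 40.4) of the alpha sum, and *Tuba4a* from 45.1% (39.1 to 51.1) to 26.2% (21.4 to 31.0). *Tuba1a* was then listed above the alpha genes that had led in control cells, though its FPKM interval overlapped that of *Tuba4a*. In GEF-H1-/- cells *Tuba1a* went from 10.1% to 25.8% (21.3 to 30.2) of the alpha sum. *Tuba4a* went from 45.3% (38.6 to 52.0) to 33.9% (28.2 to 39.6), with overlapping intervals.

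*Tubb6* went from 13.3% (10.6 to 16.01) to 27.6% (22.7 to 32.5) of the beta sum in WT cells and from 11.1% to 19.1% (15.4 to 22.8) in GEF-H1-/- cells. *Tubb5* stayed the largest beta share in all groups, at 53.2% and 40.8% in control and treated WT and 52.9% and 45.1% in control and treated GEF-H1-/- cells. In all groups but control WT, its FPKM interval overlapped that of the next beta gene. Its share intervals overlapped between control and treated cells of both genotypes. The single shares of *Tubb2a*, *Tubb2b* and *Tubb3* were small throughout, with none of them above 4.56% of the beta sum in any group. Each was higher in treated than in control cells of both genotypes, but in WT cells the share intervals of *Tubb2a* and *Tubb3* overlapped. The share of *Tubb2a* was 1.79% (1.36 to 2.22) and 2.67% (2.07 to 3.26) in control and treated WT cells. In control and treated GEF-H1-/- cells it was 2.70% and 4.56%.

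**Figure D3:**
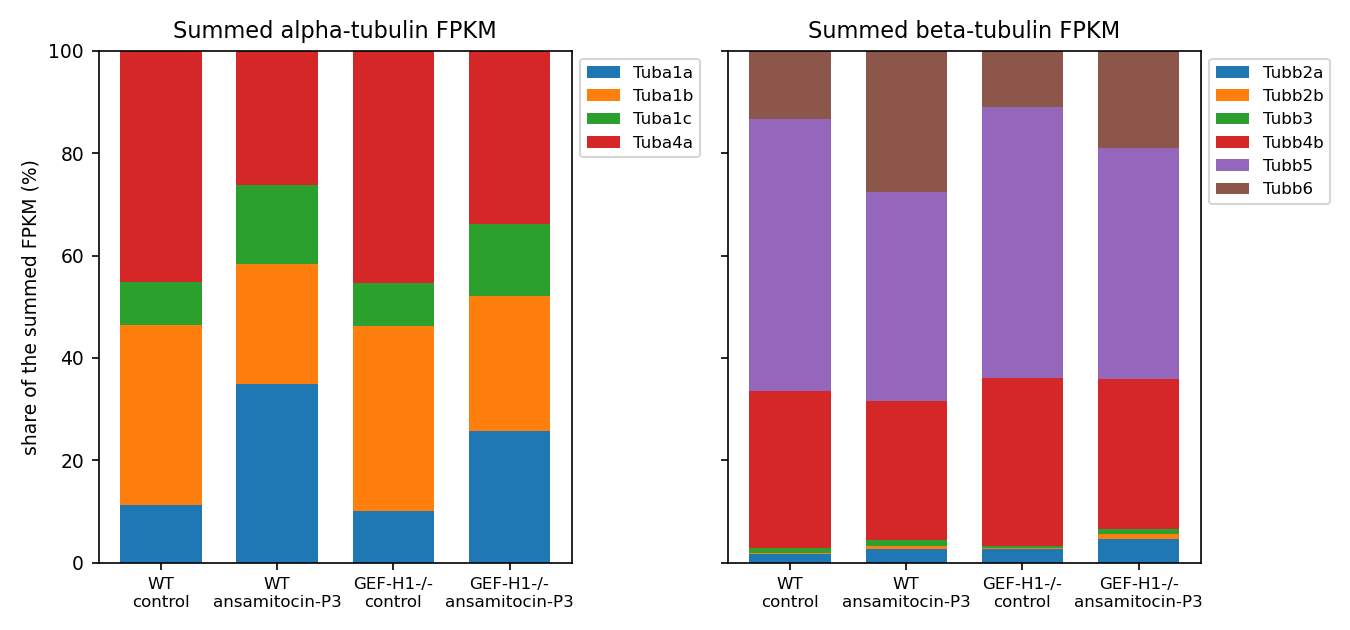
Share, in percent, of each gene in the summed FPKM of the 4 alpha-tubulin genes (left) and the 6 beta-tubulin genes (right) in each group. *Tuba1a* grew from 11.4 to 34.97% of the alpha sum in WT cells and from 10.1 to 25.8% in GEF-H1-/- cells, and *Tubb6* from 13.3 to 27.6% and from 11.1 to 19.1% of the beta sum.

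The second question was whether the level of tubulin mRNA depended on GEF-H1. In control cells no member passed a log2 difference of 1 in either direction, against 1.88% of all genes, and 2 of 10 had intervals apart, against 4.74% of all genes. *Tubb2a* was higher in GEF-H1-/- cells, at 16.8 FPKM (13.5 to 20.04) against 10.97 FPKM (8.72 to 13.2), a log2 difference of 0.57 (0.19 to 0.95). *Tubb3* was lower, at 2.89 FPKM (2.13 to 3.65) against 5.40 FPKM (4.19 to 6.61), a log2 difference of -0.72 (-1.11 to -0.33). For the other 8 genes the log2 difference was between -0.24 and 0.13.

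In treated cells again no member passed a log2 difference of 1, against 4.06% of all genes, and 3 of 10 had intervals apart, against 13.7% of all genes. *Tuba1a* was lower in GEF-H1-/- cells, at 168 against 252 FPKM, a log2 difference of -0.58 (-0.98 to -0.18). *Tubb6* was lower as well, at 243 FPKM (199 to 288) against 387 FPKM (315 to 459), a log2 difference of -0.67 (-1.04 to -0.29). *Tubb2a* was higher, at 58.1 FPKM (47.5 to 68.8) against 37.4 FPKM (30.3 to 44.5), a log2 difference of 0.62 (0.25 to 0.99). When the groups were rescaled to equal summed FPKM, the log2 differences of *Tuba1a* and *Tubb6* shrank to -0.33 and -0.42 and their intervals overlapped, while those of *Tubb2a* and *Tubb2b* were 0.86 and 0.73 with intervals apart. Rescaling to the median ratio also brought the intervals of *Tuba1a* to overlap.

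The drug effects themselves were then set against each other, as the log2 change in GEF-H1-/- minus that in WT cells. No member differed by more than 1, against 1.9% of all genes, and 1 of 10 had a propagated interval without 0, against 8.29% of all genes. That gene was *Tubb2b*, whose change was greater in GEF-H1-/- cells by 0.54 (0.03 to 1.05). *Tuba1a* (-0.49, -1.05 to 0.07), *Tubb6* (-0.43, -0.96 to 0.09) and *Tuba1c* (-0.35, -0.96 to 0.27) had lower values in GEF-H1-/- cells with intervals that held 0, and *Tubb5* was at -0.00 (-0.64 to 0.64). These intervals are wide, and a difference of up to about 1 log2 unit in *Tuba1a* lies within its interval. With the groups rescaled to equal summed FPKM the differences were 0.74 for *Tubb2b*, -0.29 for *Tuba1a*, -0.23 for *Tubb6*, -0.15 for *Tuba1c* and 0.19 for *Tubb5*. Those of *Tuba1b* and *Tubb4b* then turned from -0.10 to 0.10 and from -0.14 to 0.06.

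**Figure D4:**
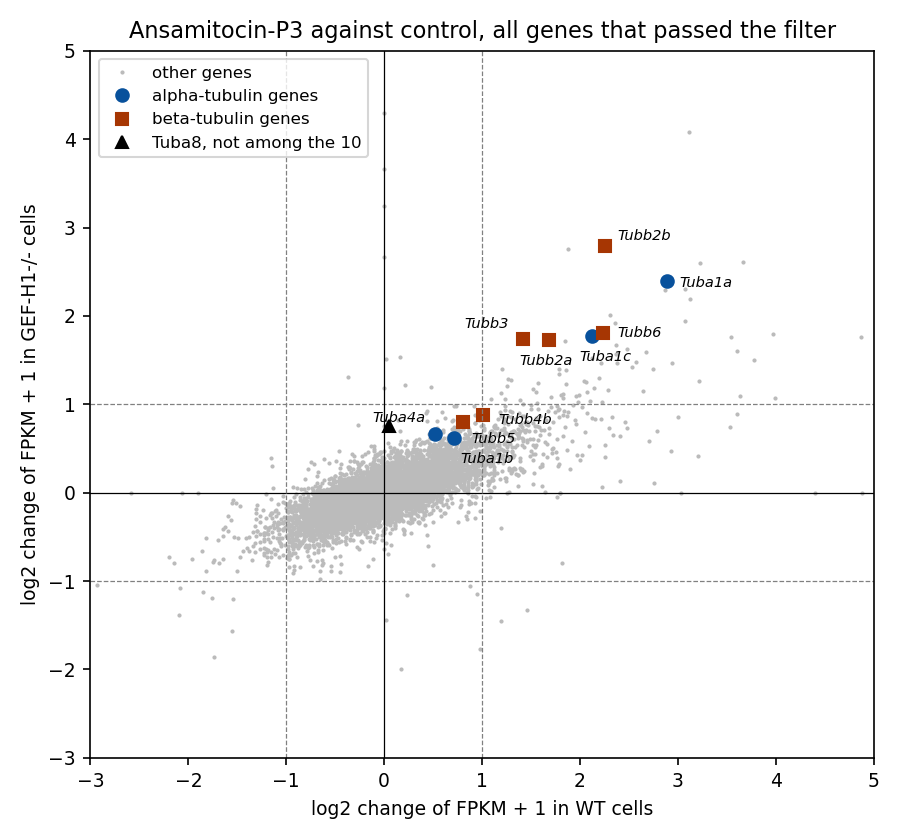
Log2 change of FPKM + 1 with ansamitocin-P3 in WT cells (x axis) and GEF-H1-/- cells (y axis) for the 11397 genes that passed the filter, with axes from -3 to 5, outside which 39 genes lie; dashed lines mark 1 and -1. The 10 tubulin genes lie in the upper right quadrant, at 0.52 to 2.89 in WT cells and 0.62 to 2.79 in GEF-H1-/- cells, and *Tuba8* lies at 0.05 and 0.76.

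Other genes of the tubulin superfamily were followed by a fixed list of 10. *Tuba3a*, *Tuba3b*, *Tubal3*, *Tubb4a* and *Tubg2* were under 1 FPKM in all groups. No gene among the other 5 was called in either genotype, with a median log2 change of -0.11 with the drug for WT cells and 0.17 for GEF-H1-/- cells. *Tubg1*, the gamma-tubulin that nucleates microtubules, was at 14.3 and 10.6 FPKM in control and treated WT cells and at 13.4 and 11.5 FPKM in control and treated GEF-H1-/- cells. *Tubd1* and *Tube1*, the delta- and epsilon-tubulins of centrioles, ranged from 2.59 to 4.25 FPKM over the groups, and *Tubb1*, the beta-tubulin of platelets, from 0.94 to 2.22 FPKM.

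*Tuba8*, a further alpha-tubulin gene, lay below all 10 members in its change in WT cells and within their range in GEF-H1-/- cells. It was at 58.2 FPKM in control and 60.1 FPKM in treated WT cells, a log2 change of 0.05 (-0.36 to 0.45) with overlapping Cuffdiff intervals. The propagated interval of this change overlapped those of *Tuba4a*, *Tuba1b* and *Tubb5*. In GEF-H1-/- cells *Tuba8* went from 89.1 to 151 FPKM, a log2 change of 0.76 with Cuffdiff intervals apart. The difference of these changes was 0.71 (0.14 to 1.27). By genotype, *Tuba8* had a log2 difference of 0.61 in control cells, with intervals apart, and of 1.31 in treated cells, 2.51-fold, where it was called higher in GEF-H1-/- cells. With *Tuba8* added, the alpha sum rose 2.23-fold in WT cells and 2.02-fold in GEF-H1-/- cells.

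Genes whose products measure, fold or modify tubulin were mostly flat while the tubulin genes rose. Of the 12 genes of the autoregulation machinery, none was called in either genotype, and the median log2 change was -0.01 in WT cells and -0.02 in GEF-H1-/- cells. *Ttc5* itself went from 19.3 to 12.2 FPKM in WT, a log2 change of -0.62 with intervals apart, and from 21.2 to 18.6 FPKM in GEF-H1-/- cells (-0.18, intervals overlapping). *Scaper*, which links TTC5 to the CCR4-NOT deadenylase, was between 2.79 and 3.22 FPKM in all groups. *Cnot7*, a deadenylase subunit, had the largest change on this list, from 23.9 to 37.9 FPKM in WT (log2 0.64) with overlapping intervals. *Cnot6* was at 38.5 and 45.3 FPKM (log2 0.23).

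All 21 genes for tubulin folding (the cofactors, prefoldin and the CCT chaperonin) stayed within log2 changes of -0.28 to 0.37 in WT cells and -0.04 to 0.21 in GEF-H1-/- cells, and all had overlapping intervals. The largest in WT were those of *Vbp1*, a prefoldin subunit (35.2 to 45.7 FPKM), *Tbce*, a cofactor of dimer assembly (16.4 to 20.3 FPKM), and *Pfdn2*, another prefoldin subunit (69.7 to 57.4 FPKM). Folding genes thus showed a median log2 change of 0.09 for WT cells and 0.02 in GEF-H1-/- cells, beside 1.55 and 1.74 for the tubulin genes.

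Of the 20 genes for tubulin modifying enzymes that were found, 15 passed the filter and none was called. In WT cells 3 of the 15 had intervals apart and higher, beside 9.19% of all genes: *Ttl*, the ligase that restores the last tyrosine of alpha-tubulin (4.50 to 7.66 FPKM, log2 0.66), *Sirt2*, a deacetylase of alpha-tubulin (37.2 to 58.9 FPKM, log2 0.65), and *Vash1*, a carboxypeptidase that removes that tyrosine (1.55 to 2.41 FPKM, log2 0.42). *Ttll12*, of the tubulin ligase family, was at 10.4 and 7.08 FPKM in WT cells (log2 -0.49) with overlapping intervals. In GEF-H1-/- cells 0 of 15 had intervals apart, beside 2.75% of all genes apart and higher, with *Ttl* at 4.60 and 5.67 FPKM, *Sirt2* at 32.0 and 34.7 FPKM and *Vash1* at 2.15 and 3.08 FPKM. The difference of the drug effects had an interval that held 0 for *Ttl* (-0.40, -0.90 to 0.09), *Sirt2* (-0.54, -1.08 to 0.01) and *Vash1* (-0.05, -0.46 to 0.37).

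Division and neuronal genes were followed because tubulin levels differ with both. The 14 genes for cell division had a median log2 change of -0.31 for WT cells, with all 14 between -0.50 and -0.05, and of 0.03 in GEF-H1-/- cells, with no interval apart. The largest in WT were those of *Top2a* (65.6 to 46.1 FPKM), *Aurkb* (31.7 to 22.9 FPKM) and *Cenpf* (3.66 to 2.39 FPKM). None of the 10 neuronal genes reached 1 FPKM in any group, *Map2* at 0.44 FPKM in control WT cells being the highest. The tubulin genes known from neurons were thus higher after the drug with neuronal markers at or near 0.

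To ask whether whole chromosomal neighbourhoods moved, the 50 filtered genes within 100 kb of a member were examined. Their median log2 change was 0.02 in WT cells and -0.02 in GEF-H1-/- cells. In WT cells 6 of the 50 had intervals apart and higher, beside 9.19% of all genes, and 4 had intervals apart and lower. The share of all genes apart and lower with the drug was not computed, so these 4 cannot be set beside one. In WT 2 of the 50 were called higher, beside 3.66% of all genes, *Dnajb2* near *Tuba4a* (4.88 to 11.2 FPKM, log2 1.05), which encodes a co-chaperone, and *Ier3* near *Tubb5* (49.0 to 104 FPKM, log2 1.07), an immediate early gene. In GEF-H1-/- cells none was called and none had intervals apart, and *Dnajb2* was at 7.05 and 9.33 FPKM and *Ier3* at 53.2 and 62.0 FPKM. *Stk16*, which shares the listed locus of *Tuba4a*, was at 16.5 and 14.9 FPKM in WT cells and 19.7 and 17.6 FPKM in GEF-H1-/- cells. *Fam166a*, which shares that of *Tubb4b*, was at 0.023 FPKM at most.

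Promoters are shown for *Tuba1a* and *Tubb2a*, as genes with a large change, and for *Tubb4b*, as an abundant gene with a smaller one. Each line gives the 250 bases before the RefSeq start on GRCm38.p6, 5′ to 3′, with matches to the motifs searched in capitals. The search covered both strands for CCAAT (as in NF-Y sites), TATAAA (the TATA box), GGGCGG (the GC box), TGANTCA (as in AP-1 sites), TGACGTCA (the full CRE), TTTGAA (as in cell cycle promoters) and the CArG box of serum response factor. Positions are chr15:98953502-98953751 (*Tuba1a*), chr13:34078009-34078258 (*Tubb2a*) and chr2:25224703-25224952 (*Tubb4b*), all on the minus strand.
Tuba1a: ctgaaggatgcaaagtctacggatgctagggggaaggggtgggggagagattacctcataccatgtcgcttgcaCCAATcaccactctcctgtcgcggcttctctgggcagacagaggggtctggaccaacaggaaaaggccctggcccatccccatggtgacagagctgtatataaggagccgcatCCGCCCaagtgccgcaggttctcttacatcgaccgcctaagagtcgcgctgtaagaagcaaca
Tubb2a: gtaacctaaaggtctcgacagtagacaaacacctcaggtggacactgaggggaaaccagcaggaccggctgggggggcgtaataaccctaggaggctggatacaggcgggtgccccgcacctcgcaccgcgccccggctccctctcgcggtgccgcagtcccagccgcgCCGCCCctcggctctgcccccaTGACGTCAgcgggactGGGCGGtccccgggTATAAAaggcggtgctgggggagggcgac
Tubb4b: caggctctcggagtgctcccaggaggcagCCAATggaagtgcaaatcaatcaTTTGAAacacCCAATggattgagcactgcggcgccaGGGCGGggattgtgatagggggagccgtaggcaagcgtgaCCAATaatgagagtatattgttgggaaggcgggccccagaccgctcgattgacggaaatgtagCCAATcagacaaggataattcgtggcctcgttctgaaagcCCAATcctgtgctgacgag

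The RefSeq promoter table matched 8 of the 10 members, those other than *Tubb2b* and *Tubb6*. CCAAT was found in 5 of these 8 (*Tuba1a*, *Tuba1c*, *Tubb3*, *Tubb4b* and *Tubb5*) and in 33.8% of all 32851 promoters, and *Tubb4b* held 5 matches. GGGCGG was found in 6 of 8 and in 32.7% of all promoters. TATAAA was found in *Tubb2a* alone (12.4% of all promoters), TGACGTCA in *Tubb2a* alone (1.55%), and TTTGAA in *Tubb4b* alone (15.99%). TGANTCA (6.75% of all promoters) and the CArG box (1.47%) had no match in the 8 windows. No motif searched was found in all 4 of the genes with the larger changes that had a window (*Tuba1a*, *Tuba1c*, *Tubb2a* and *Tubb3*). Printed matches did not overlap each other.

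By the fixed rule of likeness, the genes nearest to the summed tubulin profile (log2 changes of 1.23 in WT cells and 1.05 in GEF-H1-/- and a control difference of 0.04) were sought among 8884 genes with at least 5 FPKM in a group. The distance was Euclidean over these 3 values, which share the control groups, from 4 groups in all. They were *9830001H06Rik* (distance 0.09), *Zbtb21*, *Micall1*, *Serpinb9* and *1700088E04Rik* (0.24), which shares its listed locus with *Micall1*. *Serpinb9*, a granzyme B inhibitor, went from 35.6 to 86.2 FPKM in WT cells and from 32.4 to 76.1 FPKM in GEF-H1-/- cells. Nearest to *Tuba1a* alone were the small RNA gene *Snora3*, listed at 0 in both control groups, and *Dusp1*, *Gm13889*, *Gdf15* and *Stk38l*. *Dusp1*, a phosphatase of MAP kinases, went from 14.3 to 128 FPKM in WT cells and from 15.04 to 78.3 FPKM in GEF-H1-/- cells, and *Gdf15*, a stress-induced cytokine, from 1.18 to 19.4 FPKM and from 1.48 to 14.0 FPKM.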

How the data were processed

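RNA-seq of 8 BMDC libraries (4 groups of 2) was used. The authors made stranded, paired-end mRNA libraries with 35-base reads and computed FPKM with Cuffdiff, version 1.05 on mm10 per the submitters' processing notes, and the deposited table gives 1 FPKM per gene and group with 95% bounds. The aligner and annotation of the Cuffdiff table are not given in the sources used here. The WT columns name no genotype and were assigned by elimination. Depth per library cannot be read from FPKM values, and 0 columns of per-sample values were left unused.

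Of 23356 genes, 107 without an accepted status were left out, and a filter of 1 FPKM in at least 1 group left 11397. Log2 ratios of FPKM + 1 were computed in Python 3.11.15 (numpy 2.4.6, pandas 2.3.3), with SE as the interval width over 2 × 1.96 and the delta method. Only the fold rule was tried on simulated data, with changes far past the limit, and the propagated intervals were not tried. No test was possible on pooled values. Genes were named by rule: *Arhgef2*, every member, the other tubulins, *Ttc5*, *Scaper*, up to 3 per further list by the largest WT change, called neighbours and the 5 nearest profiles. Marker genes, *Vash1*, *Map2*, *Stk16* and *Fam166a* were named after their values were seen. The members and lists were chosen with earlier results of these data known. Proteins were translated and aligned in Biopython 1.88 from GENCODE M21. Marker lists for T and B cells (summed FPKM 21.6 in control WT and 14.5 in control GEF-H1-/-), mast cells and basophils (108 and 197), erythroid cells (0.24 and 2.10) and fibroblasts (0.30 and 3.25) were also summed. Alternatives were other pseudocounts, filters, scalings and limits. A withheld sequence is not reported here.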

Additional observations from a re-analysis of the deposited data

How the results depend on the processing

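No paired analysis was possible because the table holds 1 pooled value per group, and for the same reason no library could be left out. The direction of all 10 members with the drug held in both genotypes under every pseudocount and scaling tried. The number of members past the limit was 6 to 9 in WT and 6 to 10 in GEF-H1-/- cells, the 9 and 10 at a limit of 0.58. At that limit the control cells had 1 member lower, and treated cells 1 higher and 1 lower, by genotype. Rescaling to summed FPKM without small RNA genes moved the median of all genes by -0.20 in WT (drug) and turned its split from 417 higher and 146 lower to 273 and 357, and that of the treated genotype comparison from 228 and 235 to 401 and 129. Under it, by genotype in treated cells, 2 members were apart higher and 0 lower, against 1 and 2; rescaling to the median ratio left 1 lower. Under the summed-FPKM scaling 7 members in WT and 8 in GEF-H1-/- cells had intervals apart with the drug. The share of all genes with intervals apart was not computed under either rescaling, so these member counts cannot be set beside one.

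Counts over all genes moved most. With a pseudocount of 0.1 FPKM they were 150 higher in GEF-H1-/- (drug), 372 by genotype in control cells, 801 in treated cells and 387 for the difference of the drug effects. With 5 FPKM they were 59, 101, 206 and 123, and 271 higher in WT. At the limit of 0.58 they were 1120 in WT, 321 in GEF-H1-/-, 607, 1716 and 958. *Tubb2b* depended most on the pseudocount, whose change was 2.92 (WT) and 3.53 (GEF-H1-/-) at 0.1 FPKM, and 1.20 and 1.59 at 5 FPKM. Without *Tuba4a* and *Tubb5* the alpha sum rose 3.32-fold and 2.56-fold, the beta sum 2.89-fold in WT, and the alpha to beta ratio was 0.641 and 0.617 in treated cells. With *Tuba8*, an alternative chosen after seeing the data, it was 0.571 and 0.639 in control WT and GEF-H1-/- cells and 0.631 in treated GEF-H1-/- cells. The cause of these shifts was not tested beyond the construction of each alternative.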
